A study of Mus musculus with 24 samples.

Results

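A set of 7 genes that sets the electrical excitability of the muscle fibre membrane was followed in mouse *M. gastrocnemius* after a short hypoxia exposure, and 1 of them, *Abcc9*, was lower in Hypox than in Norm at an unadjusted p under 0.05. The genes were *Atp1b1*, *Atp1b2*, *Fxyd1*, *Scn4a*, *Clcn1*, *Kcnj11* and *Abcc9*. They were chosen by name: every probe on the array that the array design assigned to 1 of these 7 symbols was taken, which gave 8 probes of 55681. All 8 were bright enough to be tested. In the whole series 14421 probes were, and 11324 of these were assigned to a gene, which gave 9186 genes. *Kcnj11* had 2 probes and the other genes had 1 each.

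Each of 24 arrays held the RNA of the whole gastrocnemius of 1 mouse, 12 from the Norm group and 12 from the Hypox group. All mice were male C57BL/6JOlaHsd, arrived at 10 weeks of age, and received a low-fat diet (10% of energy from fat) for 3 weeks and then a high-fat diet (40% of energy from fat) for 6 weeks. They were then fasted and kept for 6 h at 12% oxygen (Hypox) or 20.9% oxygen (Norm), and the muscle was frozen directly afterwards. The groups therefore shared the strain, the sex, the high-fat diet and the fast, and differed in the oxygen level alone as far as the labels state. The RNA of each mouse carried the dye Cy5 and was hybridised against a Cy3-labelled pool of all samples. A value below is the log2 ratio of the 2 dyes after correction within each array for spot brightness (loess). A value of 0 is therefore the array's trend for spots of like brightness, and not the level of the pool. The labels of some Hypox samples named other dye numbers, and the direction was taken from the series' description of the dyes.

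The resting fibre keeps sodium out and potassium in through the Na,K-ATPase, a pump made of a catalytic alpha subunit and a beta subunit, with phospholemman (*Fxyd1*) as a small regulator beside it. An action potential starts when the voltage-gated sodium channel Nav1.4 (*Scn4a*) opens. The chloride channel ClC-1 (*Clcn1*) carries most of the resting conductance and steadies the membrane. The ATP-sensitive potassium (KATP) channel opens when ATP falls, and joins a pore subunit, Kir6.2 (*Kcnj11*) or Kir6.1 (*Kcnj8*), with a sulfonylurea receptor, SUR2 (*Abcc9*) or SUR1 (*Abcc8*).

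The sequences of 5 probes are shown because the results on the KATP channel rest on 3 of them and the other pair are the 2 that hold the end signal of an mRNA. Each probe was 60 bases long, and positions are those the array gives on the mouse build mm9. Stretches of 30 bases are shown 5′ to 3′, except for the *Kcnj11* probe that ends with the reading frame, which is shown whole. Capitals mark AATAAA, the usual signal for the end of an mRNA, or the stop codon TGA.
*Abcc9* probe, first 30 bases (whole probe chr6:142536920-142536979, minus strand): attgcgttgcttgggctacctccgatgaca
*Kcnj11* brighter probe, first 30 bases (whole probe chr7:53353119-53353178, minus strand): agaaaaagaaatattgggaagttcagcctg
*Kcnj11* dimmer probe, whole (chr7:53354095-53354154, minus strand): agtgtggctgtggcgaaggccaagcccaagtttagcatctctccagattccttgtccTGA
*Fxyd1* probe, bases around the signal (whole probe chr7:31836699-31836758, minus strand): gctcagacctctAATAAAactcggttttcc
*Atp1b2* probe, bases around the signal (whole probe chr11:69413253-69413312, minus strand): agggtaaagtacAATAAActgagagcgatt
The dimmer *Kcnj11* probe reads 19 codons and the stop codon in 1 frame, the last codons of Kir6.2, and the brighter probe begins on the same strand after a gap of 916 bases beyond the stop. AATAAA was present in 2 of the 8 probes and in 10.1% of all probes on the array. The exon annotation of mm9 was not used here for the other probes.

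Arrays differed in brightness between slides rather than between groups. Every slide of the 6 carried 2 arrays of either group, and slides are numbered below in scan order. The mean Cy5 signal of a Norm array was between 58.3 and 933, and that of a Hypox array between 63.5 and 1014. Slide 6 was the dimmest (72.9 on average) and slide 4 the brightest (845). RNA was taken from whole muscle, so that fewer cells of a type and less RNA per cell cannot be told apart. The 8 skeletal fibre markers were all bright enough to be tested. Of these, 3 had a positive log2 fold change (*Des* 0.083, *Acta1* 0.061 and *Ckm* 0.038) and 5 a negative one. An unadjusted p under 0.05 was reached by 2 of the 8, both lower in Hypox, and by 12% of all genes. These 2 were *Neb* (−1.12, adjusted p = 0.0123 by limma, lower on 6 of 6 slides) and *Ttn* (−0.75, adjusted p = 0.0478), which code for giant proteins of the sarcomere. Their part in the *Abcc9* value was not tested. The lung surfactant gene *Sftpc* was well above background on 4 Hypox arrays and on 0 Norm arrays. Of 8 lung markers 2 were bright enough to be tested, and *Sftpc* was higher in Hypox (0.81, p = 0.0163). The results were therefore also computed without those 4 arrays, a choice made after the data were seen, and the part of lung RNA in them was not tested otherwise.

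**Figure D1:**
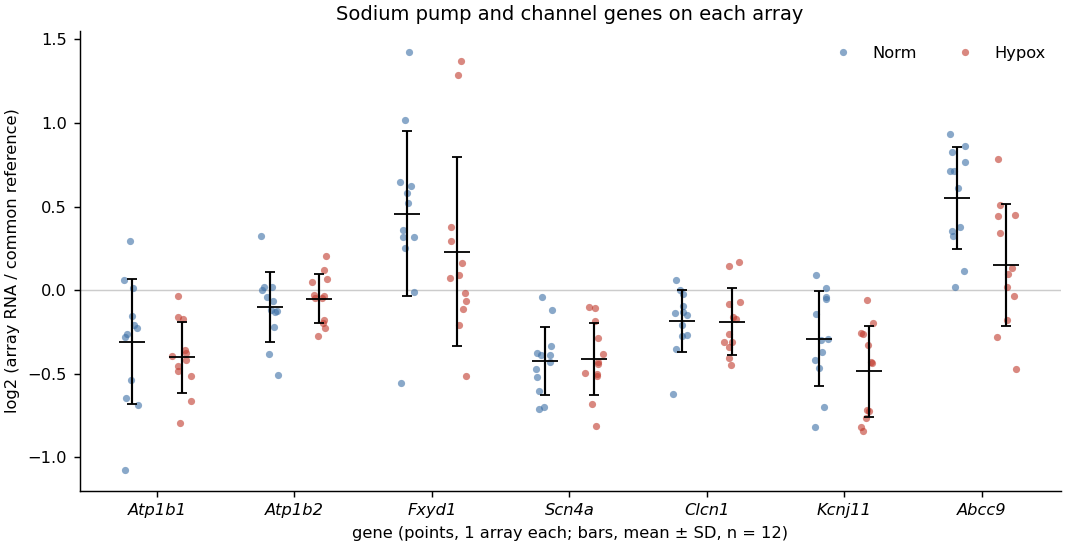
Log2 ratio of the array's RNA to the common reference (vertical axis) for the 7 genes (horizontal axis), 1 point for each of 12 Norm and 12 Hypox arrays, with the mean and SD. The groups overlap for every gene. *Abcc9* shows the widest gap, with 4 Hypox arrays under the lowest Norm array.

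*Abcc9*, the sulfonylurea receptor of the muscle and vascular KATP channel, had a lower level after hypoxia. Its log2 ratio in Norm was 0.016 at the lowest, 0.66 at the median and 0.93 at the highest. In Hypox it was −0.47 at the lowest, 0.12 at the median and 0.78 at the highest. Of the 12 Hypox arrays, 11 were lower than the Norm median and 4 were lower than every Norm array. The mean was 0.55 ± 0.30 in Norm and 0.15 ± 0.37 in Hypox (SD, n = 12). The log2 fold change was −0.40 (SE 0.13, 95% interval −0.67 to −0.13), a change of −24.2%, with an unadjusted p of 0.00483 and a Benjamini-Hochberg adjusted p of 0.198 over all genes (limma). The difference thus passed the unadjusted threshold that the study used, and did not pass after adjustment. It ranked 155th of 9186 genes from the most negative fold change.

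One gene called of 7 is 14.3% of the members, and 12% of all genes tested were called at the same threshold (4.96% lower in Hypox and 7.08% higher). After adjustment 0.348% of all genes were called and 0 of the 7 members. A share of 1 in 7 is close to that background, and nothing was read from the count itself. The median log2 fold change was −0.094 over the 7 genes and 0.029 over all genes.

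The lower *Abcc9* level was present on 5 of the 6 slides. The difference between the mean of the Hypox arrays and that of the Norm arrays was −1.04 on slide 1, −0.27 on slide 2, −0.50 on slide 3, −0.078 on slide 4, −0.53 on slide 5 and 0.023 on slide 6. Slide 1 had the widest difference, and slides 4 and 6, the brightest and the dimmest, the differences nearest 0. With the slide as a block the unadjusted p was 0.00625. Leaving out each array in turn gave log2 fold changes from −0.46 to −0.34, all 24 with an unadjusted p under 0.05, and without the 4 arrays with *Sftpc* the value was −0.42 (p = 0.0115). The value was −0.015 (p = 0.974) with median centring in place of the intensity-dependent loess correction and −0.18 (p = 0.501) in the authors' own normalised table.

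**Figure D2:**
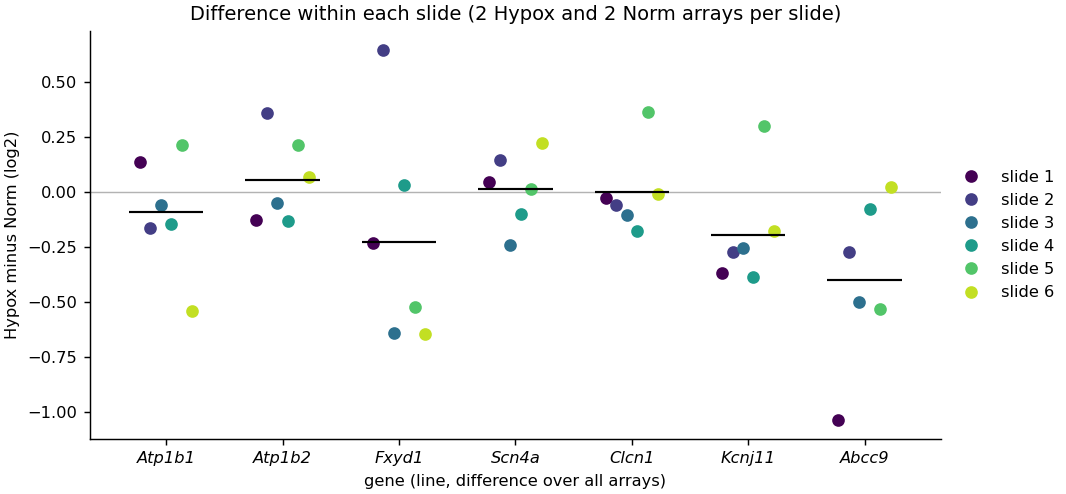
Hypox mean minus Norm mean on each slide (vertical axis, log2), 1 point per slide with 2 arrays of each group behind it, and a line at the difference over all arrays. *Abcc9* is below 0 on 5 of 6 slides, and *Kcnj11* on the same number, with slide 5 as its exception.

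*Kcnj11*, the pore subunit Kir6.2 of the KATP channel in fibres, was read by 2 probes whose log2 fold changes had opposite signs. The brighter probe, at 4.25 times the local background, lay between −0.82 and 0.090 in Norm (median −0.30) and between −0.84 and −0.059 in Hypox (median −0.43). The groups overlapped almost entirely, with 1 Hypox array under all Norm arrays. Its log2 fold change was −0.19 (SE 0.11, 95% interval −0.42 to 0.031, unadjusted p = 0.0885, adjusted p = 0.486 by limma), which did not pass.
The within-slide difference was negative on 5 of 6 slides, from −0.39 on slide 4 to −0.18 on slide 6, and was 0.30 on slide 5. With the slide as a block the unadjusted p was 0.0411, under a background of 14% of genes called by that fit, and the adjusted p was 0.328. Without the 4 arrays with *Sftpc* the value was −0.11 (p = 0.374).

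The dimmer *Kcnj11* probe, on the end of the coding sequence, gave 0.16 (SE 0.11, unadjusted p = 0.158 in the fit over probes). It lay only 2.05 times over the local background, and the scanner software marked it as well above background on 7 Norm and 6 Hypox arrays. Its Norm arrays ran from −0.43 to 0.22 and its Hypox arrays from −0.36 to 1.06. One array, Hypox 2, held the value of 1.06, and the next highest Hypox array was at 0.15. Within arrays, the brighter probe minus the dimmer probe was −0.20 ± 0.26 in Norm and −0.55 ± 0.49 in Hypox (SD, n = 12), a difference of −0.35 (2-sided permutation test over arrays, p = 0.0242). Without Hypox 2 the difference was −0.23 (p = 0.0490 by the same test). The 2 probes did not follow each other closely over arrays, with a correlation r of −0.10, and of 0.27 without Hypox 2. The comparison of the 2 probes was added after their values were seen. The mean of both probes gave a log2 fold change of −0.017 (p = 0.834), so the direction for *Kcnj11* depended on the probe.

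**Figure D3:**
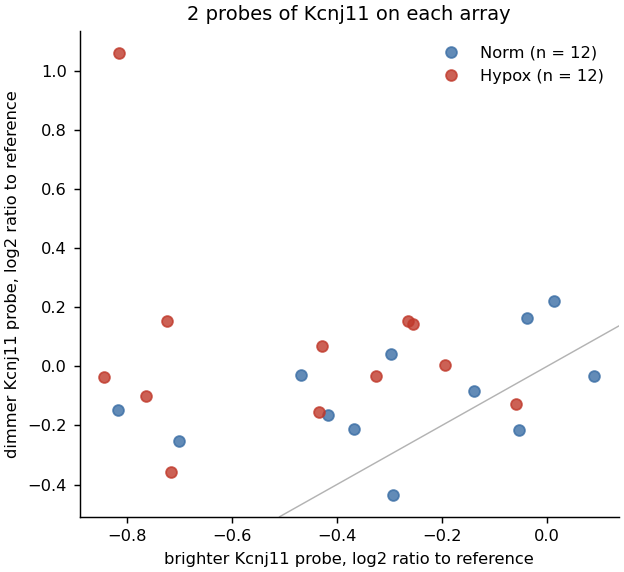
The brighter *Kcnj11* probe (horizontal axis) against the dimmer probe (vertical axis), both as log2 ratio to the reference, 1 point per array and a line where the 2 are equal. The Hypox array at 1.06 on the vertical axis stands apart from the other 23 arrays.

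The other subunits of the KATP channel were read beside these. *Kcnj8*, the pore subunit Kir6.1 typical of vascular smooth muscle and pericytes, lies next to *Abcc9* on chromosome 6 in the RefSeq annotation. Its log2 ratio was −0.21 ± 0.13 in Norm and 0.028 ± 0.13 in Hypox (SD, n = 12). The log2 fold change was 0.24 (SE 0.063, unadjusted p = 0.000765, adjusted p = 0.0976 by limma), higher on 5 of 6 slides, so that the neighbouring partner of *Abcc9* was higher while *Abcc9* was lower. The *Kcnj8* probe was dim, at 2.60 times background, and well above background on 7 Norm and 9 Hypox arrays. With the processed signals of the scanner software its value was 0.69 and did not pass (p = 0.0571). *Abcc8*, the receptor SUR1 known from the pancreatic beta cell, gave 0.021 (p = 0.861).
Markers of vascular smooth muscle and pericytes gave 0 of 8 genes past the threshold, with a median log2 fold change of −0.022. Their mean log2 ratio lay between −0.36 and 0.068 over the Norm arrays and between −0.51 and −0.00077 over the Hypox arrays. Endothelial markers gave 3 of 6 tested genes higher and 0 lower at an unadjusted p under 0.05, led by *Cdh5* (0.38, adjusted p = 0.203 by limma). Over all genes 7.08% were called higher and 4.96% lower. *Kdr* (−0.15) and *Tie1* (−0.0040) had negative values, and 0 of the 6 passed after adjustment. The part of these vascular markers in the *Abcc9* and *Kcnj8* values was not tested.

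The promoter of *Abcc9* is shown because that gene passed the threshold, and the promoter of *Clcn1* because it held the same motif and showed no such difference. Each run holds 250 bases before the RefSeq start of transcription and 10 after it on GRCm38.p6, 5′ to 3′ on the strand of the gene, with matches to the binding motif of the muscle factor MEF2 in capitals.
*Abcc9* (chr6:142702265-142702524, minus strand): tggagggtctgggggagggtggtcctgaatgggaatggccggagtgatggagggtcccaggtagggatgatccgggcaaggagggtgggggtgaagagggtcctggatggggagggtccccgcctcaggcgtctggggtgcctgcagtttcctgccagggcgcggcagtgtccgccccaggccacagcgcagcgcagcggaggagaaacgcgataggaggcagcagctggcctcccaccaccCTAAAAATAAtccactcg
*Clcn1* (chr6:42286435-42286694, plus strand): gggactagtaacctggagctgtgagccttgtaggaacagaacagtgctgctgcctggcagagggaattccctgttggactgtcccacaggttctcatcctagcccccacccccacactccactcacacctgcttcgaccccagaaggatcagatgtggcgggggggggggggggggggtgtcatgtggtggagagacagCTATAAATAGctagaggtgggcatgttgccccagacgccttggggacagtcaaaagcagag
Both strands of the 300-base windows were searched for MEF2, for ACGTG or GCGTG (the core of the hypoxia response element), for GTAAACA (a FOXO motif) and for CANNTG (the E-box). RefSeq promoters were matched for 5 of the 7 genes. *Abcc9* and *Clcn1* held 1 MEF2 match each, which 3.19% of 32851 promoters hold. ACGTG or GCGTG was found in *Atp1b1* (1 match) against 43.8% of all promoters. CANNTG was found in *Clcn1* (3 matches) and *Abcc9* (1 match) against 72.3% of all promoters, and GTAAACA in 0 of the 5 against 3.65%. These are matches of letters in a short window.

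Neither beta subunit gene of the sodium pump showed a difference past the threshold. *Atp1b1*, the ubiquitous beta subunit, lay between −1.07 and 0.30 in Norm (median −0.24) and between −0.79 and −0.036 in Hypox (median −0.40). The Hypox arrays lay inside the Norm range, and the log2 fold change was −0.094 (SE 0.12, 95% interval −0.34 to 0.15, unadjusted p = 0.439). *Atp1b2*, the beta subunit best known from glia, lay between −0.51 and 0.32 in Norm (median −0.092) and between −0.28 and 0.21 in Hypox (median −0.039). Here too the Hypox range lay inside that of Norm, with a log2 fold change of 0.053 (SE 0.078, 95% interval −0.11 to 0.21, unadjusted p = 0.504).

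*Fxyd1* was the most variable of the 7 genes. It lay between −0.56 and 1.42 in Norm (median 0.44) and between −0.51 and 1.37 in Hypox (median 0.083), and 10 of 12 Hypox arrays were under the Norm median. The mean was 0.46 ± 0.49 in Norm and 0.23 ± 0.56 in Hypox (SD, n = 12), and its SD within Norm was at the 95.7th percentile of all genes. The log2 fold change of −0.23 (SE 0.20, 95% interval −0.64 to 0.18, unadjusted p = 0.262) was smaller than this spread. Slides differed in sign, with 4 slides lower in Hypox and 2 higher, from −0.65 on slide 6 to 0.64 on slide 2. Without the 4 arrays with *Sftpc* the value was −0.12 (p = 0.615).

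*Scn4a* and *Clcn1*, the main sodium and chloride channels of the fibre, had nearly equal means in Norm and Hypox. *Scn4a* had a mean of −0.42 ± 0.20 over the Norm arrays and −0.41 ± 0.22 over the Hypox arrays (SD, n = 12), and its log2 fold change was 0.012 (SE 0.087, 95% interval −0.17 to 0.19, unadjusted p = 0.887). *Clcn1* had a mean of −0.18 ± 0.18 against −0.19 ± 0.20 in Hypox, and its log2 fold change was −0.0034 (SE 0.081, 95% interval −0.17 to 0.16, unadjusted p = 0.967). The intervals leave room for a log2 change from −0.17 to 0.19 in *Scn4a* and from −0.17 to 0.16 in *Clcn1*. They hold for ratios computed with an offset of 50 added to the signals. This offset shrinks the ratios of dim spots, so the intervals are not bounds on the change in the RNA itself. *Clcn1* was slightly lower in Hypox on 5 of 6 slides, by at most 0.18, and higher by 0.36 on slide 5. Both probes were dim, at 3.47 times background for *Scn4a* and 4.42 times for *Clcn1*, and *Scn4a* was well above background on 9 arrays of either group.

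Genes that act with these were taken from 7 lists with 37 genes, of which 29 were tested and 8 were too dim. Of the 29, 5 (17.2%) passed an unadjusted p under 0.05, 2 higher and 3 lower in Hypox, against the background of 12% above. After adjustment 0 of them passed. In direction, 16 of the 29 were higher and 13 lower, with a median log2 fold change of 0.039. Over all genes 58.7% were higher. On the deposited values 0 of the 5 passed by limma, where 5.36% of all genes did, and with median centring 0 of the 5 passed, where 0.348% of all genes did.
Of 3 tested partners of the sodium pump, *Atp1b3*, another beta subunit, gave −0.048 (p = 0.513), and the regulators *Fxyd5* and *Fxyd6* gave 0.20 (p = 0.0803) and 0.16 (p = 0.369), so 0 of the 3 passed. Among 7 tested sodium channel partners, the auxiliary subunit *Scn3b* was lower (−0.30, SE 0.14, p = 0.0406, adjusted p = 0.383). The call was not stable when single arrays were left out, with 13 of 24 fits past the threshold. Its value was −0.19 (p = 0.254) without the 4 arrays with *Sftpc* and −0.63 (p = 0.0401) with the processed signals.

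*Clcn3*, a chloride/proton exchanger of endosomes, was lower with both of its probes. The brighter probe gave −0.27 (SE 0.11, p = 0.0151) and the other −0.18 (SE 0.078, p = 0.0284). Its level was 0.21 ± 0.19 in Norm and −0.061 ± 0.33 in Hypox (SD, n = 12). It passed in all 24 fits that left out 1 array, and 4 of 6 slides were lower.
Of 9 tested potassium channel genes other than the KATP subunits, 8 had a positive log2 fold change, where 58.7% of all genes did. Further probes of *Kcna7* (−0.14), *Kcnc1* (−0.082) and *Kcnma1* (−0.036 and −0.17) were negative, the last with p = 0.0245 in the fit over probes. By gene, 1 of the 9 passed, against 12% of all genes. This was *Kcnj12*, the inward rectifier Kir2.2 (0.39, SE 0.16, p = 0.0213, adjusted p = 0.305 by limma). Its Hypox arrays were more spread (0.33 ± 0.57) than its Norm arrays (−0.058 ± 0.16), and with the processed signals it did not pass (0.32, p = 0.0537). *Kcnj2*, the related Kir2.1, was too dim to be tested.

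Of the T-tubule calcium channel, whose pore *Cacna1s* is the voltage sensor of contraction, *Cacna2d1* passed with 1 of its 2 probes. The brighter probe gave −0.37 (SE 0.12, p = 0.00521), lower on 6 of 6 slides, and the other, of nearly the same brightness, gave 0.24 (SE 0.19, p = 0.215). The mean of both probes gave −0.065 (p = 0.494). The brighter *Cacna1s* probe gave −0.29 (SE 0.20, p = 0.163), lower on 5 of 6 slides, and passed with the slide as a block (p = 0.00383). The other *Cacna1s* probe, at 44.9 times background, gave 0.018 (SE 0.10, p = 0.864 in the fit over probes), so the lower value rested on 1 probe. Of the 3 other ion transporters of the sarcolemma, 0 passed.

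**Figure D4:**
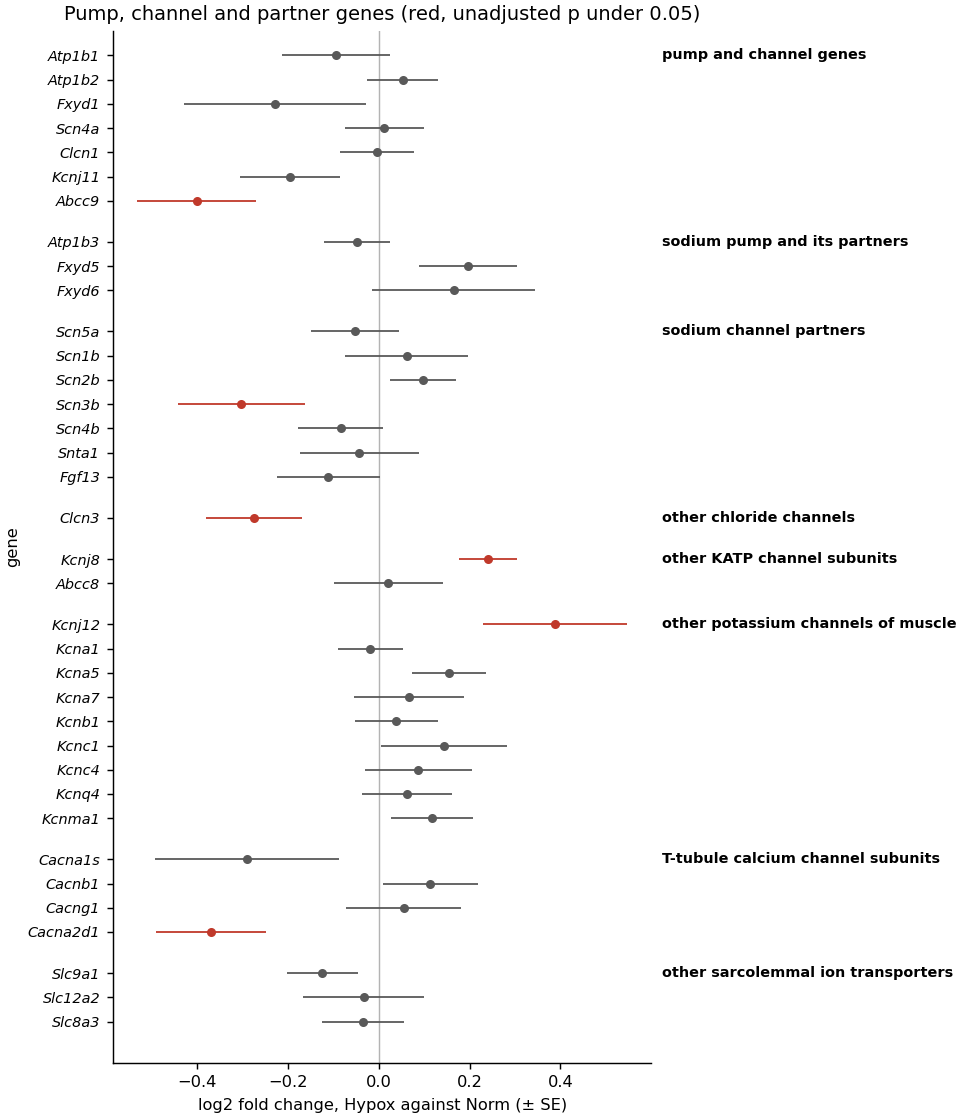
Log2 fold change of Hypox against Norm with its SE (horizontal axis) for the 7 genes and the 29 tested genes of 7 related lists (vertical axis), with red for an unadjusted p under 0.05. *Abcc9*, *Scn3b*, *Clcn3* and *Cacna2d1* are lower and *Kcnj8* and *Kcnj12* higher.

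Some markers of other cells and of fibre types also passed the unadjusted threshold, and 0 did after adjustment in the 4 lists that follow, against the background of 12% of all genes called unadjusted. All 8 slow fibre markers had a positive log2 fold change and 2 passed (median 0.36). Their mean log2 ratio lay between −2.08 and 0.60 over the Norm arrays and between −0.26 and 0.16 over the Hypox arrays. That mean was higher in Hypox on 4 of 6 slides. Of 8 fast fibre markers, 6 had a negative log2 fold change, of which 0 passed, and 1 with a positive one passed. With the slide as a block, a fit that called 14% of all genes, *Myh4* (p = 0.00378), *Myh1* (p = 0.0101) and *Pvalb* (p = 0.0173) passed as lower. In the same fit the fast fibre marker *Mylpf* passed as higher (0.36, p = 0.00156, higher on 6 of 6 slides). All 7 tested markers of peripheral nerve had a negative log2 fold change and 3 passed (median −0.17), as did all 5 tested adipose markers with 2 passing (median −0.24). The part of these markers in the values of the pump and channel genes was not tested.

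The 3 pairs of genes that work together were compared over the 24 arrays after the group and slide means were removed. *Kcnj11* with *Abcc9* gave a Pearson r of −0.17 (p = 0.324) and a Spearman rho of −0.29 (p = 0.149), *Atp1b1* with *Atp1b2* gave 0.17 (p = 0.521) and 0.18 (p = 0.474), and *Scn4a* with *Clcn1* gave 0.34 (p = 0.190) and 0.28 (p = 0.318). Permutations were made within group and slide, and the lowest p adjusted over the 3 pairs was 0.487 for r and 0.447 for rho. Arrays were also left out where the first gene of a pair lay farthest from its median log2 ratio, 2 for each pair. The r values were then −0.12, 0.41 and 0.32 in the same order. None of the 3 pairs passed, but this depended on the processing. With median centring r was 0.84 (unadjusted p = 0.00194) for *Atp1b1* with *Atp1b2* and 0.75 (unadjusted p = 0.00661) for *Scn4a* with *Clcn1*, and on the deposited values it was 0.62 (unadjusted p = 0.0129) for the former.

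For each of the 7, the 3 genes with the highest Pearson r were picked from all genes searched. The highest of so many values cannot be compared with the r of a pair named beforehand. Over the same 24 arrays and 9134 genes, *Abcc9* was most like *Slmap*, a sarcolemmal membrane protein (Pearson r 0.87), then *Ufsp2* and *Atp13a1* (0.84 each). *Kcnj11* was most like *Atp2a1*, the calcium pump of fast fibres (0.84), *Nr1d1*, a clock repressor (0.84), and *Msrb3* (0.81). *Clcn1* was most like *Dync1h1*, the dynein heavy chain (0.87), *Phkg1*, the muscle phosphorylase kinase (0.84), and *Chd2* (0.82). *Zfp408* and *Foxl2* were among the 3 genes most like *Fxyd1* (0.94 each). *Atp1b2* was most like *Capn1* (0.82), *Rasd2* and *AI837181* (0.80 each), *Atp1b1* most like *Fhl2* (0.81), *Rab15* and *St3gal3* (0.77 each), and *Scn4a* most like *Ell* (0.74), *Olfr373* and *Tmem158* (0.73 each). These are descriptions over shared arrays, on which probes of like brightness also share the correction for brightness.

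**Figure D5:**
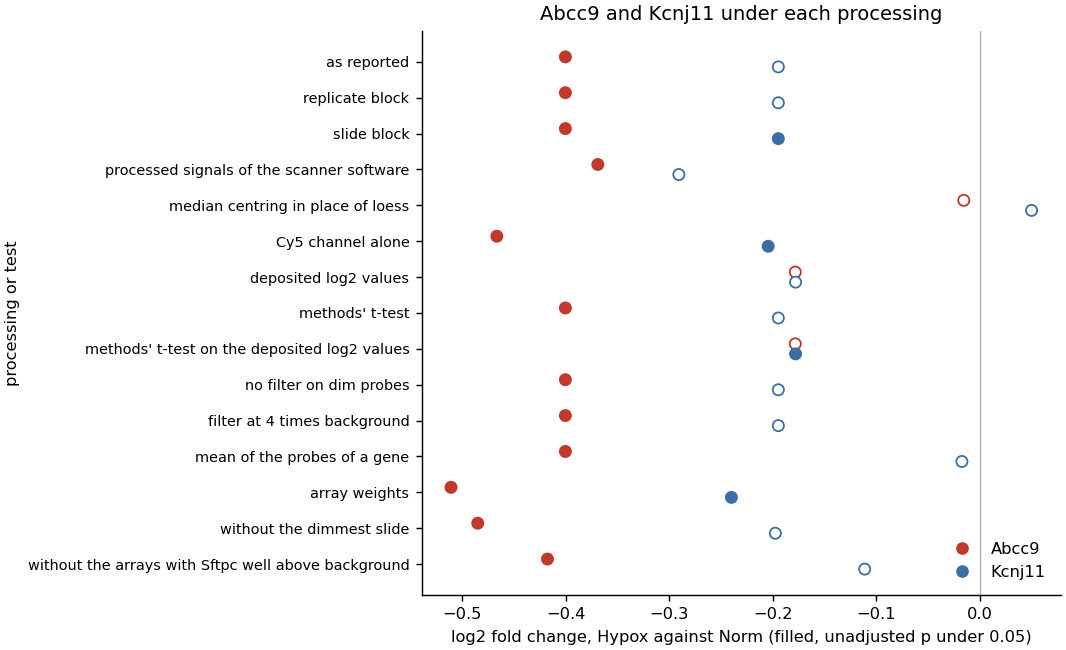
Log2 fold change of Hypox against Norm (horizontal axis) for *Abcc9* and *Kcnj11* under each way of processing or testing (vertical axis), filled where the unadjusted p was under 0.05. *Abcc9* lies between −0.51 and −0.37 in all but 3, the median-centred ratios and both tests on the deposited values.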

How the data were processed

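The arrays were Agilent 2-colour arrays read with Feature Extraction 10.7.3.1, per the labels, and the deposited scanner files give red and green mean and background intensity for each spot. The authors also deposited a table of log2 values, used only as an alternative: each column followed that array's log2 Cy5 signal (r 0.967 to 0.999), all columns shared a median of 6.58, and the exact normalization is not given in the sources used here. Members and lists were chosen with earlier results of these data known.

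Intensities were corrected with normexp (offset 50) and loess within arrays in limma 3.58.1. Control spots were left out, as were 7260 flagged readings, and 0 spots were saturated. A probe entered the tests if its Cy5 signal, averaged over arrays, exceeded 2 times that of its surroundings, with no more than 4 arrays missing. The brightest probe stood for its gene. Groups came from the sample titles, and nothing states separate RNA preparations beyond 1 mouse per array. Hypox was compared with Norm by lmFit and eBayes over 9186 genes with Benjamini-Hochberg adjustment. The study's threshold, an unadjusted p of 0.05, was kept. Named were the 7 members, each listed partner past this threshold and the 3 genes most correlated with each member. Array names were updated through RefSeq accessions (27235 of 55681 probes), symbols (3581) or synonyms (565). On simulated data the fit recovered 100% of 200 genes given a log2 change of 1, with 7 false calls. None of the members changed that much, so recovery at the sizes reported here was not measured. The number of arrays limits the precision. Alternatives were the replicate and slide blocks, other background, dye and filter choices, the methods' t-test, array weights and leaving out arrays. A few listed genes are not reported here and were left out of the list counts.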

Additional observations from a re-analysis of the deposited data

How the results depend on the processing

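*Abcc9* kept its direction under each alternative, but lost the unadjusted call with median centring in place of loess (−0.015) and on the deposited log2 values (−0.18 with limma and with the methods' t-test, which was added after the data were seen). Relative to the median of all genes, 0.25 under median centring and 0.085 on the deposited values, *Abcc9* was at −0.27 and −0.26. *Kcnj11* passed with the slide block (−0.19), Cy5 alone (−0.20), array weights (−0.24) and the methods' t-test on the deposited values (−0.18). Median centring moved all genes up, and the fold changes as given turned positive for *Atp1b1* (0.31), *Fxyd1* (0.41), *Clcn1* (0.20), *Kcnj11* (0.050), *Clcn3* (0.092) and *Cacna2d1* (0.058). Relative to the median of all genes *Kcnj11* (−0.20), *Clcn3* (−0.16), *Cacna2d1* (−0.19) and *Clcn1* (−0.054) kept their sign there, and *Atp1b1* (0.062) and *Fxyd1* (0.16) did not. Signs as given also turned for *Atp1b1* (0.11), *Fxyd1* (0.22), *Clcn1* (0.036) and *Scn4a* (−0.024) on the deposited values, where relative to all genes *Clcn1* (−0.048) and *Scn4a* (−0.11) had the sign they had in the reported fit relative to all genes (−0.032 and −0.016). *Clcn1* turned with the scanner's processed signals (0.062), Cy5 alone (0.042) and without the 4 arrays with *Sftpc*, also added after the data were seen (0.016), and *Scn4a* without the dimmest slide (−0.029), all close to 0. The correlation of *Atp1b1* with *Atp1b2* turned to −0.065 and that of *Scn4a* with *Clcn1* to −0.17 with processed signals, and that of *Kcnj11* with *Abcc9* to 0.48 with median centring. The methods' t-test also lost *Scn3b* (p = 0.0550). The cause was not tested.

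Genes past the unadjusted threshold (1106) numbered 32 with median centring, 729 with Cy5 alone, 489 on the deposited values, 517 with the methods' t-test on them, 1939 without a filter and 1714 with array weights. Genes past the adjusted threshold (32) numbered 62 with the slide block, 66 with processed signals, 0 with median centring, 12 with Cy5 alone, 9 with the methods' t-test, 1 on the deposited values by either test, 8 without a filter, 266 with array weights and 1 without the arrays with *Sftpc*. With array weights *Abcc9* was at −0.51 and passed after adjustment (limma, p = 0.0201).

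Leaving out each array in turn gave log2 fold changes of −0.46 to −0.34 for *Abcc9*, −0.24 to −0.16 for *Kcnj11*, −0.33 to −0.14 for *Fxyd1*, −0.16 to −0.039 for *Atp1b1*, 0.016 to 0.091 for *Atp1b2*, −0.016 to 0.049 for *Scn4a* and −0.043 to 0.020 for *Clcn1*. *Kcnj11* passed in 3 of these 24 fits, *Scn4a* and *Clcn1* changed sign in some, and the counts ran from 965 to 1280 unadjusted and from 4 (without Hypox 7) to 51 (without Norm 12) adjusted.

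Samples of the same number in the 2 groups were not paired by any label, and their deviations correlated between −0.18 and 0.43, over 0.1 in 3 of 12 numbers. With the replicate block 1181 genes passed unadjusted and 11 adjusted, and *Abcc9* had p = 0.00825. *Scn4a* was not tested with a filter at 4 times background, since its probe did not pass. Dim probes limit *Scn4a*, *Clcn1*, *Kcnj11* and *Kcnj8*, which lay under 5 times the local background.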
